A study of Saccharomyces eubayanus and Saccharomyces cerevisiae x Saccharomyces eubayanus with 20 samples.

Results

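In all, 4 libraries of the interspecific hybrid HTSH020 were compared, 2 from maltotriose cultures and 2 from maltose cultures, out of 20 libraries in the series. Every gene of both parental subgenomes in the hybrid's tables was taken, 11285 genes in all (5506 of S. eubayanus and 5779 of S. cerevisiae), of which 10983 passed the filter on low values and 302 did not. HTSH020 is 1 isolate from a spore-to-spore cross of the Saccharomyces eubayanus strain CDFM21L.1 with the S. cerevisiae brewing strain CBC-1, which cannot use maltotriose and lacks the transporter gene MAL11 (AGT1), so the hybrid carries both genomes and no engineered allele. The cultures were grown in shake flasks at 20 °C in synthetic medium with 20 g/L of maltotriose or maltose as the sugar, and 2 glucose cultures (20 g/L) of the hybrid served as the baseline. The labels state mid-exponential growth at an OD660 of 12.5 for all groups, whereas the study's methods give a higher sampling density for maltotriose than for the other sugars, so sugar and culture density cannot be told apart in any comparison below. RNA was sequenced as polyadenylated RNA, and values are FPKM (fragment counts scaled to gene length and to library depth), a level that can be set side by side between genes since it is divided by gene length.

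Maltose and maltotriose are the main fermentable sugars of brewing wort. Yeast takes both up whole, by proton symporters of the plasma membrane, and an intracellular maltase (alpha-glucosidase) cuts them to glucose. In S. cerevisiae the transporter, maltase and activator genes generally lie together in subtelomeric MAL loci. In the S. eubayanus parent the study found no locus with this arrangement, and that parent used neither maltose nor maltotriose. MAL genes are switched on by maltose through the MAL activator and shut off by glucose. Most MAL transporters carry maltose but little maltotriose, whereas Agt1 carries both. When glucose is scarce, yeast also releases from repression the genes for using ethanol and acetate, for respiration and for storage and stress protection. Genes are written here with Se for the S. eubayanus and Sc for the S. cerevisiae copy.

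Depth was 18325350 and 17844173 reads on genes in the maltotriose cultures, against 18260141 and 23175074 in the maltose cultures. The S. eubayanus subgenome took 48.0% and 48.1% of the reads on maltotriose and 49.9% and 50.6% on maltose. The free-text descriptions of the hybrid's libraries disagree in part with their titles, because 1 maltose library is described with a maltotriose medium and both maltotriose libraries with a maltose medium. The titles and the carbon-source labels name the same sugar for every library and were followed. Log2 levels across all tested genes correlated at 0.989 between the maltotriose libraries and 0.977 between the maltose libraries, and at 0.747 to 0.797 between the sugars, so the libraries grouped by title, which does not tell whether the sugars of the groups could be exchanged. The study's methods describe the libraries of a group as biological duplicates, and p-values rest on the spread between such duplicates.

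On maltotriose, 3090 genes were higher and 4029 lower than on maltose, out of 10983 tested (limma on log2(FPKM + 1), adjusted p under 0.05 over all genes). These 7119 genes are 64.8% of those tested, and the maltotriose and maltose cultures did not overlap for 81.5% of genes, so a single call, or a single gene whose cultures are apart, is common here. In the S. eubayanus subgenome 1502 genes rose (27.8%) and 2082 fell (38.6%), and in the S. cerevisiae subgenome 1588 rose (28.4%) and 1947 fell (34.8%). Every count of called list members below is to be read against these shares. Changes of at least 1 on the log2 scale were called for 781 higher (14.5%) and 1099 lower (20.4%) S. eubayanus genes, and for 818 higher (14.6%) and 984 lower (17.6%) S. cerevisiae genes. Beyond 3 on that scale the rises outnumbered the falls, with 116 rises and 53 falls in the S. eubayanus and 139 rises and 34 falls in the S. cerevisiae subgenome. The median log2 fold change was -0.18 over S. eubayanus genes and -0.11 over S. cerevisiae genes. Rescaling the libraries by median ratios moved the median of all genes by 0.13, so changes near that size depend on the scaling, and the values below should be read against these medians. Without the 2nd maltotriose culture 5828 genes were called, the fewest of the 4 ways of leaving out a culture. In every such fit 1 sugar is left with a lone culture, which is assumed to vary like the other groups, glucose included, so a call lost or gained there rests on their spread.

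The maltase genes, SeAGT1 and the tested S. cerevisiae transporter genes stood well above their glucose levels on both sugars. Each was lower on maltotriose than on maltose. Over all genes, 38.6% were lower and 27.8% higher in the S. eubayanus, and 34.8% and 28.4% in the S. cerevisiae subgenome. In the S. eubayanus subgenome 5 of 9 genes for transporters, maltases and activators fell, 2 rose and 2 were not called, with a median log2 fold change of -1.39. In the S. cerevisiae subgenome 5 of the 7 tested fell and the other 2 were not called, with a median of -1.60. The S. eubayanus rises numbered 1 without either maltotriose culture or the 1st maltose culture and 4 without the 2nd maltose culture, and 1 S. cerevisiae gene was called higher without the 1st maltose culture. The MPH3 transporter gene of the S. cerevisiae subgenome had no reads and was not tested.

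SeAGT1 encodes the S. eubayanus transporter that accepts maltotriose, and it is annotated as 3 near-identical copies near the ends of chromosomes 7, 14 and 15. Summed over the copies, it stood at 1124 and 987 FPKM on maltotriose, against 3558 and 7529.7 FPKM on maltose and 7.35 and 6.23 FPKM on glucose. The maltotriose cultures lay below both maltose cultures and far above both glucose cultures. The log2 fold change against maltose was -2.30 (SE 0.31, limma adjusted p = 6.8e-04). The copies on chromosomes 7, 14 and 15 held 12661, 12379 and 12711 reads in the 1st maltotriose culture. In the 1st maltose culture they held 40191, 38688 and 40205 reads. Which copy was transcribed cannot be told from these near-equal values. Whether the same reads were counted at more than 1 copy was not tested. If they were, the summed FPKM would overstate the level of SeAGT1.

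The S. cerevisiae MAL loci on chromosomes 2 and 7 each carry a maltose transporter, a maltase and an activator. ScMALT1, the chromosome 2 transporter, stood at 847 and 738 FPKM on maltotriose, against 2011 and 2872 FPKM on maltose, and its log2 fold change was -1.60 (SE 0.27, adjusted p = 0.0019). ScMALT2 on chromosome 7 stood at 821 and 678 FPKM on maltotriose, against 2021 and 2888 FPKM on maltose, a log2 fold change of -1.69 (SE 0.28, adjusted p = 0.0018). Neither gene overlapped between the sugars. Each alone was below SeAGT1 on maltotriose, but SeAGT1 is a sum over its copies, so this does not rank the transporter transcripts of the subgenomes. The values of ScMALT1 and ScMALT2 were close in every library. Reads could be shared between these genes, which was not tested.

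The S. eubayanus MALT transporter genes moved in different directions. The study reports early stop codons in SeMALT2 and SeMALT3, and neither allele supported growth on maltose. SeMALT2 on chromosome 12 fell to 12 and 16.8 FPKM on maltotriose, against 96.0 and 267 FPKM on maltose (log2 fold change -3.41, SE 0.43, adjusted p = 4.8e-04). SeMALT1 on chromosome 2 rose, with 31.5 and 34.8 FPKM on maltotriose, against 4.33 and 4.54 FPKM on maltose (log2 fold change 2.65, SE 0.15, adjusted p = 1.7e-05). SeMALT3 on chromosome 13 stood at 33.9 and 36.2 FPKM on maltotriose, against 64.9 and 134 FPKM on maltose, a log2 fold change of -1.39 that shrank to -0.87 without the 2nd maltose culture. SeMALT1 is the 1 transporter gene of either subgenome that was called higher on maltotriose, at a level far below that of SeAGT1.

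The maltase genes fell in both subgenomes. SeMALS1, next to SeMALT1 on chromosome 2, stood at 79.5 and 87.5 FPKM on maltotriose, against 902 and 1128 FPKM on maltose (log2 fold change -3.58, SE 0.14, adjusted p = 4.5e-06). SeMALS2, next to SeMALT2 on chromosome 12, stood at 79.7 and 80.5 FPKM on maltotriose, against 1316 and 1671 FPKM on maltose (log2 fold change -4.19, SE 0.14, adjusted p = 2.6e-06). Both S. eubayanus maltases were therefore near 80 FPKM on maltotriose, and their cultures on the 2 sugars were far apart. ScMALS1 stood at 499.7 and 503 FPKM on maltotriose, against 2997 and 3939 FPKM on maltose, with a log2 fold change of -2.77 (SE 0.15, adjusted p = 1.3e-05). ScMALS2 stood at 466 and 437 FPKM on maltotriose, against 3155 and 4222 FPKM on maltose, with a log2 fold change of -3.01 (SE 0.15, adjusted p = 1.1e-05). On maltotriose the S. cerevisiae maltase genes were thus each at a higher level than either S. eubayanus maltase gene.

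The MAL activator genes changed little or not in 1 direction. The study reports an early stop codon in SeMALR1 and proposes that the S. eubayanus activators are not functional. SeMALR1 stood at 43.4 and 37.5 FPKM on maltotriose, against 28.7 and 36.5 FPKM on maltose, and was not called (log2 fold change 0.31). SeMALR2 stood at 62.8 and 49.5 FPKM on maltotriose, against 20.7 and 43.6 FPKM on maltose, and its log2 fold change of 0.87 passed the test narrowly (adjusted p = 0.047) but was 0.35, with an adjusted p of 0.13, without the 1st maltose culture, and missed the threshold without either maltotriose culture (adjusted p = 0.22 and 0.098). SeMALR3 overlapped between the sugars, with 15.3 and 15.0 FPKM on maltotriose and 8.37 and 29.5 FPKM on maltose (log2 fold change -0.07). Among the S. cerevisiae activators, ScMALR2 was lower on maltotriose, at 15.7 and 15.9 FPKM against 38.3 and 42.0 FPKM on maltose (log2 fold change -1.29, SE 0.13, adjusted p = 2.0e-04), and its glucose values of 21.1 and 18.9 FPKM lay above those on maltotriose. ScMALR1 stood at 48.9 and 45.3 FPKM on maltotriose, against 54.9 and 50.9 FPKM on maltose (log2 fold change -0.16), and ScMALR3 at 9.56 and 9.91 FPKM, against 7.82 and 5.98 FPKM (log2 fold change 0.45), and neither passed the test.

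**Figure D1:**
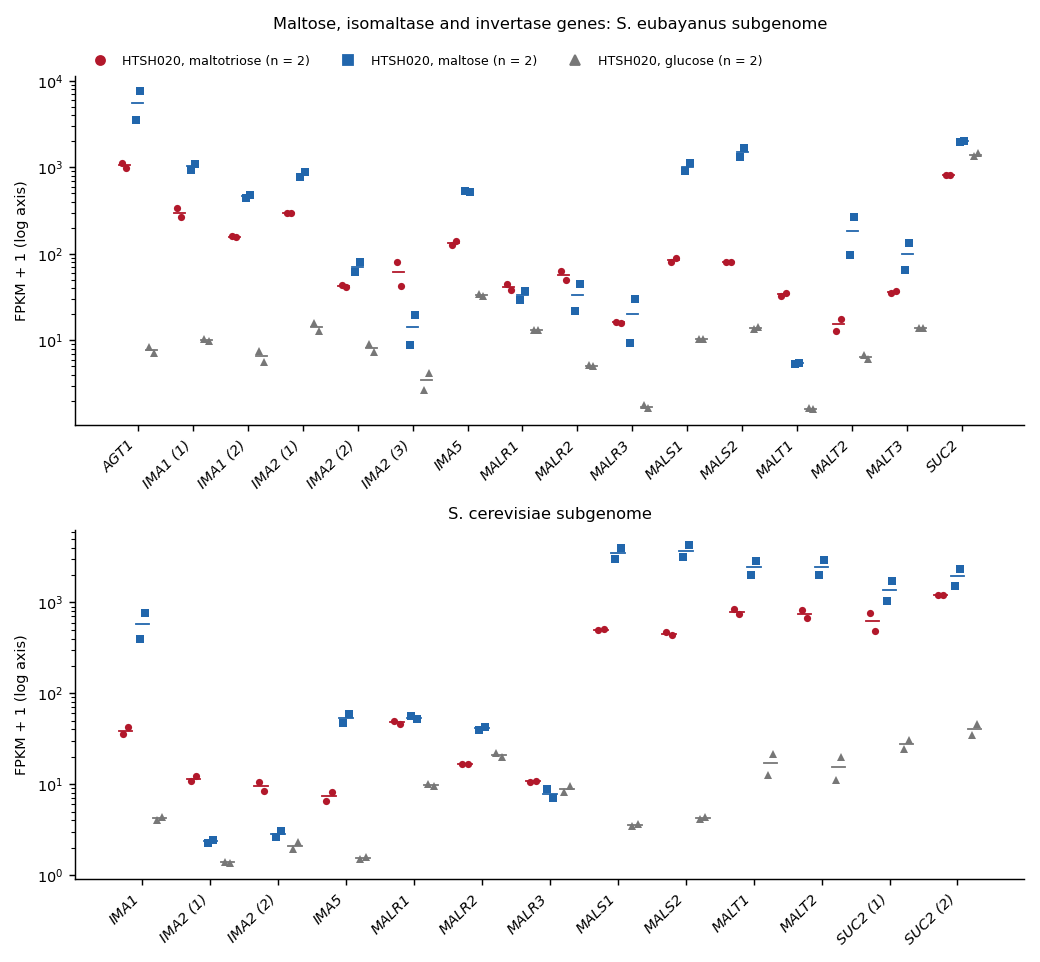
Maltose, isomaltase and invertase genes of HTSH020 in each culture, as FPKM + 1 on a log axis, with S. eubayanus genes above and S. cerevisiae genes below. Each symbol is 1 culture and each short line the mean of 2 cultures on maltotriose, maltose or glucose, and numbers in brackets tell apart genes of the same name. SeAGT1 stood at 1124 and 987 FPKM on maltotriose and at 3558 and 7529.7 FPKM on maltose, and SeMALT1 lies higher on maltotriose than on maltose.

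The isomaltases, which cut alpha-1,6-linked glucose disaccharides, and the invertase SUC2, which cuts sucrose outside the cell, went mostly the same way as the maltases. The shares over all genes were 38.6% lower and 27.8% higher (S. eubayanus) and 34.8% and 28.4% (S. cerevisiae). Of this list 6 of 7 S. eubayanus genes fell and 1 rose, with a median of -1.49. Its S. cerevisiae genes had 4 falls and 2 rises out of 6, with a median of -0.88. The S. cerevisiae falls numbered 2 without the 2nd culture of either sugar. ScIMA1 fell to 34.5 and 41.4 FPKM on maltotriose, against 399 and 766 FPKM on maltose (log2 fold change -3.84, SE 0.29, adjusted p = 4.9e-05). ScIMA5 and SeIMA5 fell by 2.85 and by 1.97 on the log2 scale, and the SeIMA1 genes of chromosomes 2 and 13 by 1.54 and 1.78. The rises were all in genes named IMA2. The short SeIMA2 model of 261 bases that lies between SeMALS1 and SeMALT1 on chromosome 2 stood at 79.4 and 41.7 FPKM on maltotriose, against 7.76 and 18.7 FPKM on maltose (log2 fold change 2.16, SE 0.45), whereas the SeIMA2 gene of chromosome 12 fell by 1.49 and the other SeIMA2 model of chromosome 2 by 0.74, the last of which was not called without the 2nd maltotriose culture (adjusted p = 0.060). The ScIMA2 genes of chromosomes 10 and 15 rose by 2.29 and 1.72, the first of them to 9.77 and 11.3 FPKM on maltotriose, against 1.24 and 1.46 FPKM on maltose. SeSUC2 fell by 1.28, with 824 and 823 FPKM on maltotriose, against 1957 and 2038 FPKM on maltose. The ScSUC2 models, which lie end to end on chromosome 9 and may be pieces of 1 gene, had log2 fold changes of -1.12 and -0.64, and both lost their call when the 2nd maltose culture was left out (adjusted p = 0.052 and 0.14) or the 2nd maltotriose culture (0.11 and 0.13), the shorter model also without the 1st maltotriose culture (0.14). IMA and HXT genes have close relatives within and between the subgenomes, so reads could be shared among them.

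The hexose transporter genes HXT5 and HXT2 rose in both subgenomes. SeHXT5, a transporter of slow-growing cells (the gene on chromosome 15), stood at 2397 and 2898 FPKM on maltotriose, against 0.0943 and 0.421 FPKM on maltose (log2 fold change 11.05, SE 0.19, adjusted p = 3.8e-07). ScHXT5 stood at 297 and 311 FPKM on maltotriose, against 0.834 and 0.836 FPKM on maltose (log2 fold change 7.38, SE 0.21). The maltose values of SeHXT5 rest on 3 and 17 reads, so the size of its fold change is set in part by the 1 FPKM added before taking logs. SeHXT2, a high-affinity glucose transporter, stood at 419 and 542 FPKM on maltotriose, against 0.909 and 0.902 FPKM on maltose and 18.7 and 21 FPKM on glucose (log2 fold change 7.97, SE 0.16, adjusted p = 4.5e-07). ScHXT2 stood at 7.85 and 14.1 FPKM on maltotriose, against 0.943 and 0.584 FPKM on maltose (log2 fold change 2.72, SE 0.31). A short SeHXT5 model on chromosome 13 was not called (log2 fold change 0.28). ScHXT5 is annotated as 1 model of 7948 bases, far longer than the 1743 bases of SeHXT5, so it may take in reads of neighbouring genes and the levels of these copies cannot be set side by side. HXT6 and HXT7, the main high-affinity transporters, which were picked after their values were seen, were not called. SeHXT7 stood at 297 and 534 FPKM on maltotriose, against 605 and 907 FPKM on maltose (log2 fold change -0.89, adjusted p = 0.053). SeHXT6 had a log2 fold change of 0.24, and the models named ScHXT7 had -0.18 and -0.49. Across all genes 27.8% were higher and 38.6% lower in the S. eubayanus, and 28.4% and 34.8% in the S. cerevisiae subgenome. Over the whole list of hexose and polyol transporters, 4 of 21 S. eubayanus genes rose (7 without the 2nd maltose culture) and 7 fell, and 2 of 9 S. cerevisiae genes rose and 3 fell.

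Apart from SePDC5, the 10 largest falls of the S. eubayanus subgenome were in models of MAN2, HXT13 and YNR071C, the first 2 of which handle the polyols mannitol and sorbitol in S. cerevisiae. All 6 models named MAN2, a mannitol dehydrogenase, fell by 7.05 to 8.20 on the log2 scale. The highest of them, on chromosome 15, stood at 8.30 and 10.9 FPKM on maltotriose, against 1837 and 3575 FPKM on maltose and 22.5 and 66.0 FPKM on glucose. The 5 SeHXT13 models, polyol transporters, fell by 5.79 to 6.66, and a gene named YNR071C, a likely aldose epimerase, fell by 7.83 in the S. eubayanus and by 5.89 in the S. cerevisiae subgenome. ScHXT17, also a polyol transporter, stood in the larger of its models at 0.370 and 0.114 FPKM on maltotriose, against 29.9 and 90.2 FPKM on maltose. The copies of MAN2 and HXT13 are too alike to be told apart with certainty, so these falls are of the family rather than of each copy.

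Shares over all genes were 38.6% lower and 27.8% higher in the S. eubayanus, and 34.8% and 28.4% in the S. cerevisiae subgenome. Of the hexokinase genes, 2 of 4 in the S. eubayanus and 3 of 4 in the S. cerevisiae subgenome fell, and the others were not called. All 4 S. eubayanus genes were called lower without the 1st maltose culture, and 1 S. cerevisiae gene was called higher without the 2nd. HXK2, the main hexokinase of cells growing on glucose, fell in both. SeHXK2 stood at 25.5 and 24.5 FPKM on maltotriose, against 371 and 364 FPKM on maltose (log2 fold change -3.83, SE 0.13, adjusted p = 3.0e-06), and ScHXK2 at 23.3 and 25.0 FPKM, against 238 and 209.9 FPKM (log2 fold change -3.16, SE 0.15). In glycolysis 8 of 16 S. eubayanus genes rose and 3 fell, and 11 of 17 S. cerevisiae genes rose and 5 fell (3 without the 2nd maltotriose culture). ScTDH3, the main glyceraldehyde-3-phosphate dehydrogenase, stood at 15733 and 15446 FPKM on maltotriose, against 4601 and 4928 FPKM on maltose (log2 fold change 1.71, SE 0.07, adjusted p = 5.4e-06). The pyruvate kinase gene CDC19 rose by 0.99 in the S. eubayanus and by 1.08 in the S. cerevisiae subgenome.

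Genes that make and use ethanol and acetate changed by isoform. PDC5, a minor pyruvate decarboxylase, was the largest fall of either subgenome. SePDC5 stood at 5.39 and 5.20 FPKM on maltotriose, against 1883 and 2149.9 FPKM on maltose (log2 fold change -8.32, SE 0.16, adjusted p = 4.2e-07), and ScPDC5 at 2.06 and 2.95 FPKM, against 1443 and 1541 FPKM (log2 fold change -8.74, SE 0.18). PDC6, another minor isoform, rose by 5.01 and 4.42 in the S. eubayanus and S. cerevisiae copies. PDC1, the major isoform, which was picked after its values were seen, stood at 5543 and 7098 FPKM on maltotriose, against 3506 and 3839 FPKM on maltose in its S. eubayanus copy. SeADH2, the alcohol dehydrogenase that oxidises ethanol, stood at 2844 and 2606 FPKM on maltotriose, against 5.65 and 5.23 FPKM on maltose (log2 fold change 8.72, SE 0.13, adjusted p = 3.3e-07). ScADH2 stood at 2054 and 1913 FPKM on maltotriose, against 404 and 492 FPKM on maltose (log2 fold change 2.15, SE 0.12). The values of the copies thus differed on maltose and were close on maltotriose. On glucose ScADH2 stood at 759 and 760 FPKM and SeADH2 at 1.85 and 1.62 FPKM. Reads of the related gene ADH1 could be shared with ScADH2, which was not tested. ACS1, the acetyl-CoA synthetase of derepressed cells, rose by 3.93 and 4.74. Of this list 6 genes rose and 7 fell of 15 in the S. eubayanus subgenome, and 6 rose and 5 fell of 15 in the S. cerevisiae subgenome. By comparison, 27.8% of all S. eubayanus genes were higher and 38.6% lower, and 28.4% and 34.8% of all S. cerevisiae genes.

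The glyoxylate cycle, gluconeogenesis and acetate-shuttle genes rose together in both subgenomes. Of the S. eubayanus genes 16 of 19 rose and 3 fell, with a median log2 fold change of 2.33, and of the S. cerevisiae genes 17 of 18 rose and 1 was not called (but was lower without the 1st maltotriose culture), with a median of 2.89. The share called higher among all genes was 27.8% and 28.4%. ADY2, an acetate transporter of the plasma membrane, was nearly silent on maltose. SeADY2 stood at 845 and 798 FPKM on maltotriose, against 0.257 and 0.101 FPKM on maltose (log2 fold change 9.45, SE 0.15, adjusted p = 3.3e-07), and ScADY2 at 763 and 737 FPKM, against 0.257 and 0.456 FPKM (log2 fold change 9.12, SE 0.15). The maltose values of SeADY2 are 4 and 2 reads. SFC1, the mitochondrial succinate-fumarate carrier, rose by 5.25 and 5.16, and CIT2, the peroxisomal citrate synthase, by 4.04 in its S. eubayanus copy. ScYAT1, a carnitine acetyltransferase, stood at 126 and 132 FPKM on maltotriose, against 1.67 and 1.92 FPKM on maltose (log2 fold change 5.53, SE 0.22). ScPCK1, which encodes the first committed enzyme of gluconeogenesis, stood at 42.4 and 39.4 FPKM on maltotriose, against 1.03 and 1.67 FPKM on maltose (log2 fold change 4.17, SE 0.21). ICL1 and MLS1, the enzymes that define the glyoxylate cycle, were picked after their values were seen. SeICL1 rose by 2.43 and ScICL1 by 2.26, and SeMLS1 rose by 3.08 and ScMLS1 by 2.70.

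**Figure D2:**
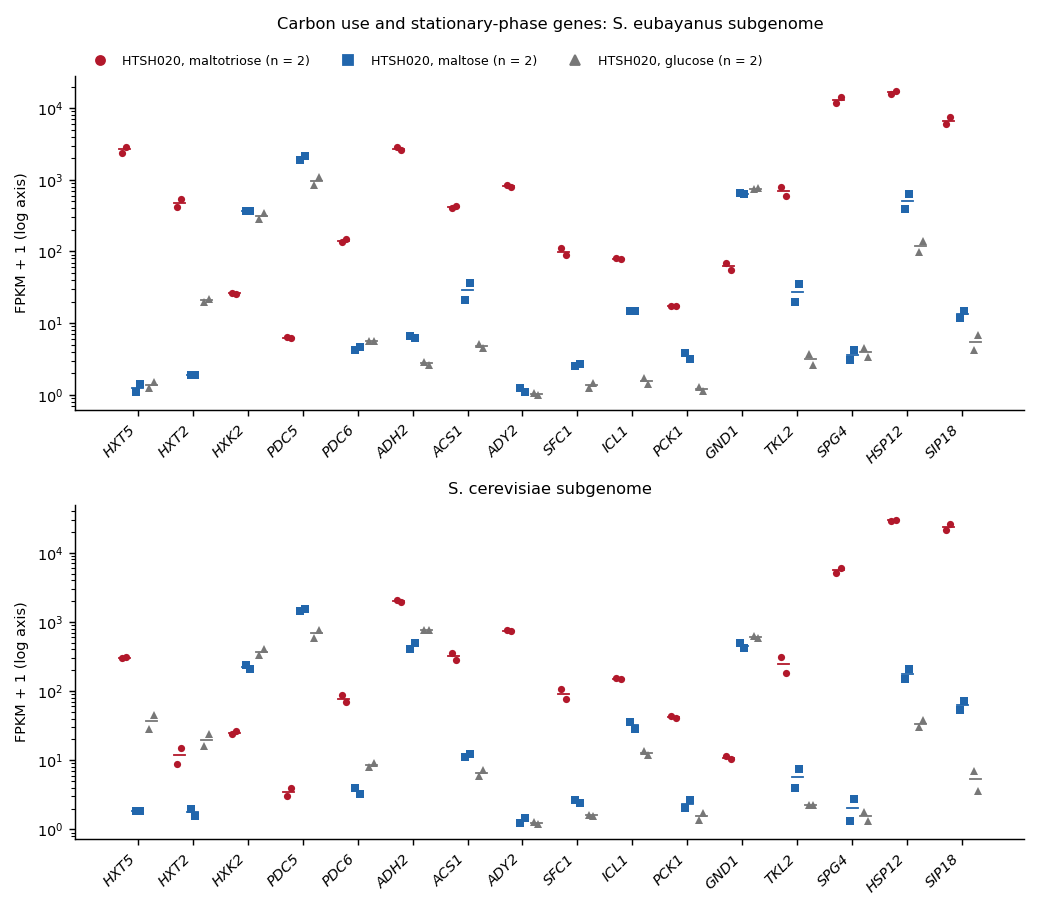
Levels of 16 genes of carbon use and stationary phase in each culture of HTSH020, as FPKM + 1 on a log axis, with the S. eubayanus copies above and the S. cerevisiae copies below. Each symbol is 1 culture and each short line a mean of 2 cultures. HXT5, ADY2 and SPG4 stood near 1 to 5 FPKM + 1 on maltose in both subgenomes and far above it on maltotriose, and PDC5, HXK2 and GND1 stood lower on maltotriose.

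Some regulators of these pathways also differed between the sugars. Those named here were picked as called members of their lists and do not stand for the lists. Among all tested genes 64.8% were called. SIP4, an activator of gluconeogenic genes, stood at 137 and 137 FPKM on maltotriose, against 3.00 and 4.60 FPKM on maltose in its S. eubayanus copy (log2 fold change 4.86, SE 0.21, adjusted p = 5.7e-06), and rose by 4.24 in its S. cerevisiae copy. HAP4, the activating subunit of the complex that switches on respiratory genes, went the other way. SeHAP4 stood at 31.5 and 20.5 FPKM on maltotriose, against 141 and 214 FPKM on maltose (log2 fold change -2.73, SE 0.30), and ScHAP4 fell by 1.95. SeCYC8, part of the general co-repressor, fell by 2.32. RAS2, a GTPase of the glucose-signalling cAMP pathway, stood at 12.6 and 7.06 FPKM on maltotriose, against 78.8 and 143 FPKM on maltose in its S. eubayanus copy, and fell by 3.36 and, in the S. cerevisiae copy, by 2.25.

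Genes of respiration were called lower more often than higher. Among all genes 38.6% were lower and 27.8% higher in the S. eubayanus subgenome, and 34.8% lower and 28.4% higher in the S. cerevisiae subgenome. In the tricarboxylic acid cycle list 15 of 26 S. eubayanus genes fell and 5 rose, and 12 of 25 S. cerevisiae genes fell and 7 rose. In the respiratory chain 13 of 21 S. eubayanus genes fell and 4 rose, and 11 of 19 S. cerevisiae genes fell and 4 rose. In the ATP synthase 11 of 13 S. eubayanus genes fell and 1 rose, which was not called without the 1st maltotriose culture, and 10 of 14 S. cerevisiae genes fell and 3 rose. SeCYC1, cytochrome c, stood at 223 and 165 FPKM on maltotriose, against 3044 and 2772 FPKM on maltose (log2 fold change -3.91, SE 0.15, adjusted p = 3.8e-06). NDE2, an external NADH dehydrogenase of mitochondria, rose in both subgenomes. SeNDE2 stood at 364 and 374 FPKM on maltotriose, against 9.36 and 13.4 FPKM on maltose (log2 fold change 4.92, SE 0.20), and ScNDE2 rose by 5.67. The pyruvate carrier subunits split by type, since MPC3 rose by 2.95 and 2.66, whereas SeMPC2 fell by 1.96.

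The pentose phosphate pathway split by isoform as well. GND1, the main 6-phosphogluconate dehydrogenase, which yields NADPH, fell. ScGND1 stood at 10.4 and 9.34 FPKM on maltotriose, against 491 and 418 FPKM on maltose (log2 fold change -5.39, SE 0.13, adjusted p = 7.8e-07), and SeGND1 at 67.5 and 54.1 FPKM, against 647 and 627 FPKM (log2 fold change -3.38, SE 0.13). TKL1, the main transketolase, fell by 2.38 and 3.01. The minor transketolase TKL2 rose by 4.72 and 5.44, and the transaldolase relative NQM1 by 3.40 and 4.45.

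Stationary-phase and hydrophilin genes held the largest rises of either subgenome. Among all genes 27.8% were higher and 38.6% lower in the S. eubayanus, and 28.4% and 34.8% in the S. cerevisiae subgenome. Of the 18 S. eubayanus genes of this list 12 rose and 1 fell, with a median of 2.85. Its 18 S. cerevisiae genes had 13 rises and 3 falls, with a median of 2.82. The S. cerevisiae falls numbered 1 without either maltotriose culture, and the S. eubayanus falls 5 without the 1st maltose culture. SeGRE1, a hydrophilin of desiccation stress, stood at 12531 and 14627 FPKM on maltotriose, against 1.27 and 4.01 FPKM on maltose (log2 fold change 11.97, SE 0.33, adjusted p = 1.4e-06). SPG4, which S. cerevisiae needs to survive heat in stationary phase, rose in both subgenomes. SeSPG4 stood at 11656 and 14326 FPKM on maltotriose, against 2.01 and 3.17 FPKM on maltose (log2 fold change 11.83, SE 0.21), and ScSPG4 at 5165 and 5951 FPKM, against 0.315 and 1.74 FPKM (log2 fold change 11.51, SE 0.34). ScHSP12, a small protein that stabilises membranes, stood at 29236 and 29872 FPKM on maltotriose, against 147 and 208 FPKM on maltose (log2 fold change 7.39, SE 0.19), and SeHSP12 at 15636 and 17482 FPKM, against 385 and 625 FPKM (log2 fold change 5.07, SE 0.25). ScSIP18, another hydrophilin, stood at 21209 and 25718 FPKM on maltotriose, against 52.5 and 70.5 FPKM on maltose (log2 fold change 8.56, SE 0.31). RGI2, a gene of energy metabolism under respiration, rose by 11.07 and 10.02. The 10 most abundant genes took 9.01% and 9.38% of reads in the maltotriose libraries, against 5.16% and 5.62% in the maltose libraries. Whether culture density had a part in these rises was not tested. The glucose cultures held ScSPG4 at 0.797 and 0.325 FPKM. Their stated density was that of the maltose cultures, so these values do not bear on density.

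Stress response elements (STRE, AGGGG or its complement CCCCT) are a known feature of promoters of such genes. Promoters of 3 genes of the list that rose in the S. cerevisiae subgenome are shown. They were picked after the matches had been counted, to set windows with several matches beside a window with none. The sequences are from RefSeq, S. cerevisiae S288C build R64, not from CBC-1, and run from 400 to 101 bases before the start codon on the coding strand, with each STRE in capitals.
HSP12 (chrVI:106856-107155, plus strand): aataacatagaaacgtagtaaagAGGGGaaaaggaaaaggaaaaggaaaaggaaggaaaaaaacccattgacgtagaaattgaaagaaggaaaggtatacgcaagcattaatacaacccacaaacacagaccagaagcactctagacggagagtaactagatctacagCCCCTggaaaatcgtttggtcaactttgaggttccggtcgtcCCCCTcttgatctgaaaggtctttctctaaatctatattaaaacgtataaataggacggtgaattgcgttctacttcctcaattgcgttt
SIP18 (chrXIII:610616-610915, plus strand): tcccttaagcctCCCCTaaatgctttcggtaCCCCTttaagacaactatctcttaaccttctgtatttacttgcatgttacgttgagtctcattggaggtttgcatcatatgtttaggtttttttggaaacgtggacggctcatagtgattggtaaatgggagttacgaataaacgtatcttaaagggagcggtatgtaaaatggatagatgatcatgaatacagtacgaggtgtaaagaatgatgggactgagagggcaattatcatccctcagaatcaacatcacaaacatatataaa
SPG4 (chrXIII:482614-482913, plus strand): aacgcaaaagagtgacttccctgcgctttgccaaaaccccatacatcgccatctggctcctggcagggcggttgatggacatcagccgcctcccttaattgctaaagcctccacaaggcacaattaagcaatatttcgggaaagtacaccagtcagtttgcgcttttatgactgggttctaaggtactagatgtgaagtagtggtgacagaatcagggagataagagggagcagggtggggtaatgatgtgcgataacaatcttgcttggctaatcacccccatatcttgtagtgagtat
The HSP12 window holds 3 such matches, the SIP18 window 2 and the SPG4 window none, and ScSPG4 had the largest fold change of these genes. Other steep rises of the list, ScSPG1 (8.60) and ScGRE1 (7.43), also have windows with no match. Over the list, 9 of 17 genes with a window had at least 1 match and 6 had at least 2. Among all 6007 S. cerevisiae windows of 300 bases, 23.6% had at least 1 match and 4.1% at least 2, counting both strands. A match is a run of letters and not a shown binding site.

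Protein folding and oxidative stress genes did not move as 1 group. Of the heat shock list 11 of 21 S. eubayanus genes fell and 5 rose, and 13 of 23 S. cerevisiae genes fell and 5 rose, with 8 falls called without the 2nd maltotriose culture. ScSSA3, a stress-induced Hsp70, stood at 436 and 499 FPKM on maltotriose, against 5.11 and 5.78 FPKM on maltose (log2 fold change 6.18, SE 0.14, adjusted p = 6.7e-07), whereas ScSSA2, a constitutive Hsp70, stood at 57.2 and 41.8 FPKM, against 360.3 and 334 FPKM (log2 fold change -2.80, SE 0.16). The mitochondrial chaperonin HSP60 fell by 2.45 and 2.31. The peroxisomal catalase CTA1 rose by 5.31 and 5.49 and the cytosolic catalase CTT1 by 3.12 and 3.31, while OYE2, an NADPH oxidoreductase, fell by 3.28 and 3.11. Over the oxidative stress list 10 of 28 S. eubayanus genes rose and 13 fell, and 10 of 27 S. cerevisiae genes rose and 9 fell. The shares among all genes were 27.8% higher and 38.6% lower in the S. eubayanus, and 28.4% and 34.8% in the S. cerevisiae subgenome. The oxidative stress counts lie near these shares, whereas the heat shock falls of the main fit lie above them.

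Peroxisome and autophagy genes rose for the most part, where 27.8% of all S. eubayanus and 28.4% of all S. cerevisiae genes were higher. Of the genes for peroxisomes and fatty acid oxidation 13 of 16 in the S. eubayanus and 14 of 17 in the S. cerevisiae subgenome rose, with medians of 2.26 and 1.26, and the other 3 of each were not called, apart from 1 S. cerevisiae fall called without the 2nd maltose culture. SePOX1, which starts peroxisomal fatty acid oxidation, stood at 133 and 115 FPKM on maltotriose, against 0.779 and 1.17 FPKM on maltose (log2 fold change 5.99, SE 0.18, adjusted p = 1.6e-06), and the thiolase POT1 rose by 4.05 and 4.44. Of the autophagy genes 28 of 36 S. eubayanus genes rose and 1 fell (which was not called without either maltotriose culture or the 1st maltose culture), with a median of 1.19, and 32 of 40 S. cerevisiae genes rose and 8 were not called, with a median of 1.32. ATG36, the receptor for breaking down peroxisomes, stood at 191 and 205 FPKM on maltotriose, against 7.82 and 7.29 FPKM on maltose in its S. cerevisiae copy (log2 fold change 4.54, SE 0.13), and rose by 3.68 in its S. eubayanus copy.

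Ribosomal protein genes, of mitochondria and cytosol, fell for the most part in both subgenomes. Of the mitochondrial ribosomal protein genes 69 of 70 S. eubayanus genes fell and 1 rose (not called without either maltotriose culture), with a median of -1.61, and 68 of 70 S. cerevisiae genes fell and 1 rose, with a median of -1.51. The shares called lower among all genes were 38.6% and 34.8%. SeMRPL4, of the large mitochondrial subunit, stood at 13.0 and 9.92 FPKM on maltotriose, against 83.5 and 78.2 FPKM on maltose (log2 fold change -2.73, SE 0.16, adjusted p = 1.8e-05). Of the cytosolic ribosomal protein genes 107 of 128 S. eubayanus genes fell and 4 rose, with a median of -0.67, and 106 of 130 S. cerevisiae genes fell and 2 rose, with a median of -0.59. The rises among these numbered 2 and 1 without the 2nd maltotriose culture and 8 and 5 without the 1st maltose culture, and the S. cerevisiae rises also 1 without the 1st maltotriose culture. RPL9A, of the large cytosolic subunit, fell by 1.84 and 1.94, though its paralogue is so alike that reads could be shared. For ribosome biogenesis 62 of 106 S. eubayanus and 48 of 108 S. cerevisiae genes fell. Both counts were smaller without the 1st maltotriose culture, and the S. cerevisiae count also without the 2nd. The S. cerevisiae count was larger without the 2nd maltose culture. Fits that leave out a culture call other numbers of genes, so their counts are not set against the shares above. Of the proteasome genes 31 of 34 S. eubayanus genes fell, with a median of -0.94, and 27 of 35 S. cerevisiae genes fell, with a median of -0.80, and 1 of each rose, with 2 S. eubayanus rises without the 2nd maltose culture. In each subgenome 9 of 10 histone genes fell.

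Amino acid and sulfur assimilation genes fell for the most part. Over all genes 38.6% were lower and 27.8% higher in the S. eubayanus, and 34.8% and 28.4% in the S. cerevisiae subgenome. In sulfur and methionine metabolism 28 of 39 S. eubayanus genes fell and 4 rose (7 without the 1st maltose culture), and 27 of 41 S. cerevisiae genes fell and 10 rose, which was 6 without the 2nd maltotriose culture. SeMET3, the ATP sulfurylase that starts sulfate assimilation, stood at 11 and 8.5 FPKM on maltotriose, against 155 and 129 FPKM on maltose (log2 fold change -3.74, SE 0.16, adjusted p = 6.2e-06), and ScMET3 fell by 3.35. In lysine synthesis 7 of 9 genes fell and 1 rose in each subgenome, with ScLYS1, which makes lysine in the last step, at 22.3 and 22.7 FPKM on maltotriose, against 302 and 226 FPKM on maltose. In the synthesis of branched-chain amino acids 11 of 13 S. eubayanus and 8 of 12 S. cerevisiae genes fell. SeBAT2, a branched-chain aminotransferase, fell to 19.5 and 20.8 FPKM on maltotriose, against 239 and 216 FPKM on maltose (log2 fold change -3.43, SE 0.13), while ScBAT2 overlapped between the sugars (30.0 and 34.4 FPKM on maltotriose, 42.8 and 33.2 FPKM on maltose). In the synthesis of other amino acids 31 of 41 S. eubayanus and 30 of 41 S. cerevisiae genes fell, and for purines and pyrimidines 18 of 23 and 18 of 25. Genes that break down amino acids for nitrogen included rises, among them PUT1, proline oxidase, by 4.21 and 4.14, and the aromatic amino acid genes ARO9, by 3.99 and 3.92, and SeARO10, by 4.63, whose product begins fusel alcohol formation from phenylalanine.

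At the cell surface, PMA1, the main proton pump of the plasma membrane, fell and its minor isoform PMA2 rose. SePMA1 stood at 445 and 402 FPKM on maltotriose, against 1438 and 1342 FPKM on maltose (log2 fold change -1.71, SE 0.10, adjusted p = 1.7e-05), and ScPMA1 fell by 2.03. ScPMA2 stood at 260.1 and 144 FPKM on maltotriose, against 2.06 and 2.61 FPKM on maltose (log2 fold change 5.87, SE 0.27). TIP1, a cell wall mannoprotein, rose by 5.68 and 6.45, and the ScFLO11 gene on chromosome 9, a flocculin, stood at 1114 and 1036 FPKM on maltotriose, against 127 and 131 FPKM on maltose (log2 fold change 3.05, SE 0.13). The ScFLO11 gene on chromosome 4 was called lower, at 1.28 and 0.439 FPKM on maltotriose, against 3.83 and 2.68 FPKM on maltose (log2 fold change -1.22, adjusted p = 0.019), but not without the 2nd maltotriose culture (adjusted p = 0.13) or the 1st maltose culture (adjusted p = 0.076). For the lists that follow, the shares over all genes were 27.8% higher and 38.6% lower (S. eubayanus) and 28.4% and 34.8% (S. cerevisiae). Of the flocculation list 5 of 8 S. eubayanus genes rose and the other 3 were not called, and 4 of 6 S. cerevisiae genes rose and 2 fell. The S. cerevisiae rises numbered 2 without the 1st maltotriose or the 2nd maltose culture. SeFLO11 overlapped between the sugars, with 35.0 and 41.5 FPKM on maltotriose and 38.0 and 33.7 FPKM on maltose, and was picked after its values were seen. In ergosterol synthesis 17 of 27 S. eubayanus genes fell and 3 rose (5 without the 1st maltose culture), and 15 of 27 S. cerevisiae genes fell and 4 rose, with ERG4, which completes ergosterol, down by 3.95 and 2.87. OLE1, the fatty acid desaturase, rose by 1.92 and 2.35. Other genes of the fatty acid and phospholipid list went both ways. ELO1 fell by 3.78 and 1.70, for example, and FAA1 rose by 1.55 and 1.70. GPP1, which releases glycerol from glycerol phosphate, stood at 4806 and 5930.3 FPKM on maltotriose, against 351 and 263 FPKM on maltose in its S. eubayanus copy (log2 fold change 4.13, SE 0.16), and rose by 2.97 in its S. cerevisiae copy.

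**Figure D3:**
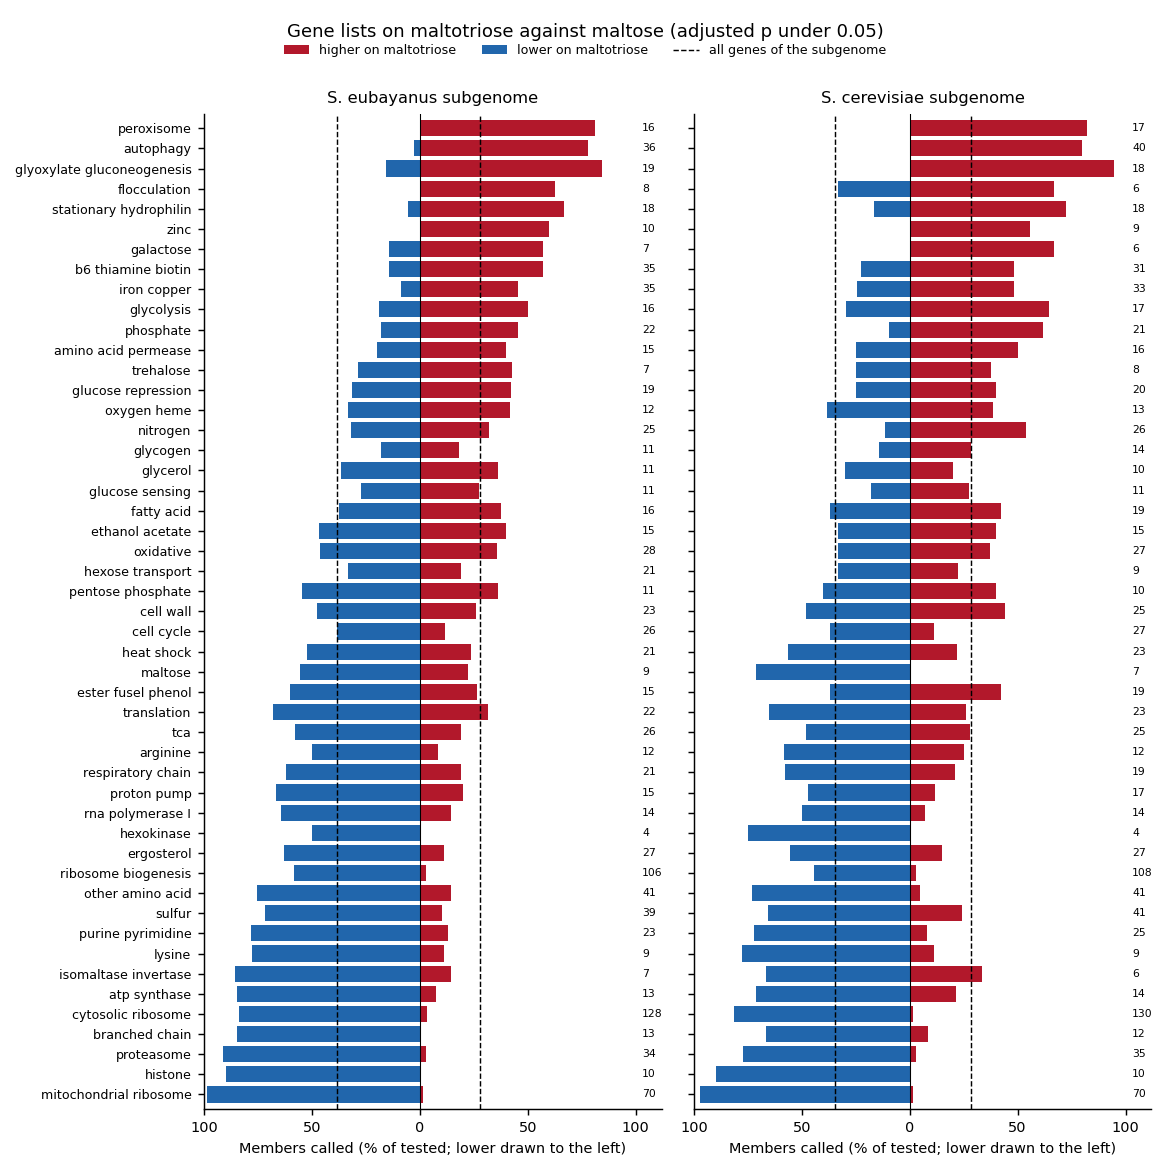
Share of the tested members of each of 49 gene lists called higher (right) or lower (left) on maltotriose than on maltose, in percent, for the S. eubayanus and S. cerevisiae subgenomes. The numbers at the right are the genes tested, and the dashed lines mark the share among all genes of the subgenome (27.8% higher and 38.6% lower for S. eubayanus, 28.4% and 34.8% for S. cerevisiae). Peroxisome, autophagy and glyoxylate genes lie at the top and mitochondrial ribosomal protein genes at the bottom in both.

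The responses of the subgenomes were then compared gene by gene, for 3539 genes with 1 copy in each subgenome and a mean of at least 10 FPKM in each, by testing how far the log2 ratio between the 2 copies (S. eubayanus over S. cerevisiae) moved with the sugar. The response differed between the copies for 2046 pairs (57.8%), with the S. eubayanus copy more positive in 912 (25.8%) and more negative in 1134 (32.0%). Over all 3539 pairs, whether or not the difference was called, both copies rose in 658 and both fell in 1089. By contrast, 116 were called in opposite directions, 50 with the S. eubayanus copy higher and the S. cerevisiae copy lower and 66 the other way round. In the remaining pairs at least 1 copy was not called. The number of opposite pairs was 59 without the 2nd maltotriose culture and 77 with the glucose cultures left out of the fit. With median-ratio rescaling 132 pairs were opposite, and 81 of the 116 were among them. Rescaling within each subgenome gave 126 opposite pairs, with 79 of the 116 among them. Which pairs were opposite thus depended in part on the scaling. The difference was called and at least 1 on the log2 scale for 625 pairs. Across the pairs the fold changes of the copies correlated at 0.82 (Pearson), a description over genes that share the same 4 libraries.

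ADH2 differed most, as its copies rose by 8.72 and 2.15, a difference of 6.57 (SE 0.14, adjusted p = 4.0e-06). ScADH2 may hold reads of the related gene ADH1, so the size of this difference is uncertain. HXT2 differed by 5.25 (SE 0.20, adjusted p = 2.0e-05), with the S. eubayanus copy the more induced. GRE1 followed with a difference of 4.54 (SE 0.23), because ScGRE1 started from 132 and 188 FPKM on maltose, although it reached 29610.0 and 25165 FPKM on maltotriose. In each of these 3 pairs both copies rose, so only the size of the rise differed. EMA19 differed by 3.33 (SE 0.19), with SeEMA19 at 663 and 800.4 FPKM on maltotriose, against 57.1 and 58.1 FPKM on maltose, and ScEMA19 at 48.8 and 41.3 FPKM, against 39.6 and 32.7 FPKM.

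At the other end, HSP31, which encodes a chaperone that also detoxifies methylglyoxal, fell in both copies but further in S. eubayanus. SeHSP31 stood at 2.06 and 1.96 FPKM on maltotriose, against 205 and 223 FPKM on maltose, and ScHSP31 at 301 and 378 FPKM, against 878 and 1028 FPKM, a difference of -4.66 (SE 0.14, adjusted p = 1.1e-05). SNZ1, of vitamin B6 synthesis, rose by 1.17 in its S. eubayanus copy and by 4.87 in its S. cerevisiae copy, a difference of -3.70 (SE 0.10). PHM7, linked to phosphate metabolism, rose by 2.15 and 5.84, a difference of -3.69 (SE 0.13). ScATO2, a relative of the acetate transporter ADY2, stood at 419 and 385 FPKM on maltotriose, against 27.2 and 28.9 FPKM on maltose, while SeATO2 stood at 153 and 137 FPKM, against 193 and 134 FPKM, with overlap (difference -3.95, SE 0.19).

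CRC1, the mitochondrial carrier of acetyl-carnitine, went in opposite directions. ScCRC1 stood at 80.6 and 87.6 FPKM on maltotriose, against 8.46 and 6.05 FPKM on maltose, and SeCRC1 at 12.9 and 14.2 FPKM, against 23.9 and 18.6 FPKM. The difference was -3.99 (SE 0.15, adjusted p = 1.7e-05). TDH1, a minor glyceraldehyde-3-phosphate dehydrogenase, was the reverse, with SeTDH1 at 323 and 304 FPKM on maltotriose, against 32.8 and 69.9 FPKM on maltose, and ScTDH1 at 82.4 and 82.6 FPKM, against 144 and 256 FPKM (difference 3.89, SE 0.12). The fall of ScTDH1 alone, -1.21, was -0.80 without the 2nd maltose culture and lost its call without the 2nd maltotriose culture (adjusted p = 0.0504).

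**Figure D4:**
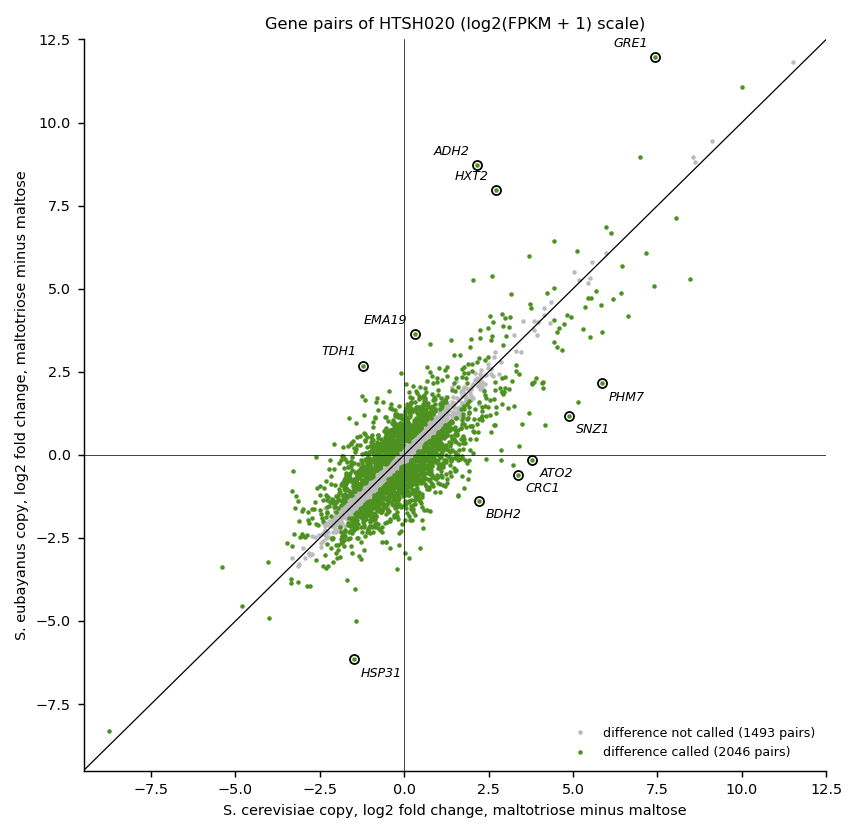
Log2 fold change of maltotriose over maltose in the S. cerevisiae copy (horizontal) and the S. eubayanus copy (vertical) of 3539 gene pairs of HTSH020, on the log2(FPKM + 1) scale. Green points are the 2046 pairs whose difference was called and grey points the other 1493, the diagonal marks equal change, and circles mark the named pairs. ADH2, HXT2 and GRE1 lie above the diagonal and HSP31, CRC1, SNZ1 and PHM7 below it.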

How the data were processed

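RNA-seq libraries of HTSH020 (2 each on maltotriose, maltose and glucose) were used, grouped by title. The authors aligned reads to the combined assemblies of CBC-1 and CDFM21L.1, removed ambiguous reads per the methods (though the near-identical SeAGT1 copies hold reads) and deposited FPKM per gene. The submitters' processing notes list STAR 2.5.3a, SAMtools, Subread 1.6.3 with featureCounts, and edgeR, whereas the methods name another counter. Values corresponded to whole reads within 0.1 read for 100% of entries, so depth was recovered. Divided MAL gene models and the 3 SeAGT1 copies were joined, and other divided models (such as those of ScSUC2, ScHXT17 and ScARO10) stayed apart and count as separate genes. S. cerevisiae names came from RefSeq R64 for 99.1% of rows. Genes averaging 1 FPKM or more over 6 libraries were tested with limma 3.58.1 (trended eBayes, R 4.3.3) on log2(FPKM + 1), with Benjamini-Hochberg adjustment over all genes. Pairs were tested the same way on log2 ratios. An exact test of 1 gene cannot go below p = 0.333 with 2 against 2. Scripts were tested on simulated data. The genes named are all maltose, isomaltase and invertase genes, the 10 largest rises and falls per subgenome, up to 4 called members per list and the 5 most different pairs each way. The members and the 49 lists were chosen with earlier results of these data known. Alternatives covered pseudocount, filter, scaling, the fit, and leaving out each culture.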

Additional observations from a re-analysis of the deposited data

Results flagged for a closer look

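The 8 gene pairs below were picked from 116 called in opposite directions. Of those 116, 50 had the S. eubayanus copy higher and 66 the S. cerevisiae copy. In each of the 8, every maltotriose culture moved in opposite directions in the copies, relative to maltose. The difference itself was called in all 8 (limma on the log2 ratio, adjusted over 3539 pairs). TDH1 was the 1 pair of them with the S. eubayanus copy higher, with a difference of 3.89 on the log2 scale. In the other 7 the S. cerevisiae copy rose and the S. eubayanus copy fell. The difference was -3.99 for CRC1, the acetyl-carnitine carrier, and -3.59 for BDH2, a butanediol dehydrogenase relative. SeBDH2 stood at 35.4 and 36.6 FPKM on maltotriose, against 58.4 and 156 FPKM on maltose, and ScBDH2 at 95 and 97.2 FPKM, against 10.4 and 38.2 FPKM. PAD1, which with FDC1 decarboxylates phenolic acids to clove-like aromas, had a difference of -2.77, with SePAD1 at 17.2 and 12.8 FPKM on maltotriose, against 32.8 and 28.7 FPKM on maltose, and ScPAD1 at 88.3 and 126 FPKM, against 34.8 and 26.3 FPKM. The partner ScFDC1 was lower, at 20.5 and 14.7 FPKM on maltotriose, against 36.0 and 27.1 FPKM on maltose (limma adjusted p = 0.010). SeFDC1 was not called (log2 fold change -0.31). GTT2, a glutathione transferase, had a difference of -2.11, with SeGTT2 at 153 and 189.8 FPKM on maltotriose, against 538 and 482 FPKM on maltose. ScGTT2 rose less than SeGTT2 fell, with 41.8 and 52.1 FPKM on maltotriose, against 37.3 and 27.2 FPKM on maltose. DAL2, of allantoin breakdown, differed by -1.82, AHA1, a co-chaperone of Hsp90, by -1.80, and PYC1, a pyruvate carboxylase, by -1.70. These are the 8 largest differences among the pairs in the gene lists whose copies were called in opposite directions.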

How the results depend on the processing

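Counts of called genes stayed within 1.5 times except with a minimum change of 1 on the log2 scale, which left 781 higher and 1099 lower S. eubayanus and 818 higher and 984 lower S. cerevisiae genes. The total called was 5828 to 7471 when a culture was left out (its lone partner is assumed to vary like the other groups), 6364 without the glucose libraries, 7117 with voom on recovered reads and 7308 with quantile normalization, where 7 genes were called the opposite way. Of 420 named genes 419 kept their direction. Of the named genes 416 were called in the main fit, and many were named for large or called changes. The count was thus largely set by that choice and says little about other genes. SeMALR3, which was not called, turned positive with median-ratio rescaling (0.065), within subgenomes (0.099), with quantile normalization (0.025), with voom and median ratios (0.068, chosen after seeing the data) and over the fits that leave out a culture ranged from -0.92 (without the 1st maltose culture) to 0.78 (without the 2nd). List medians changed sign without the 1st maltose culture for S. eubayanus hexose transporters (-0.16 to 0.47 over the fits that leave out a culture) and S. cerevisiae oxygen and heme genes (-0.27 to 0.17), and at a filter of 5 FPKM for S. cerevisiae glucose repression genes (-0.066), S. eubayanus oxygen and heme genes (-0.25) and S. cerevisiae amino acid permeases (-0.16). The causes were not tested.

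Cultures share only a replicate number. Same-numbered maltotriose and maltose deviations correlated at -0.14, maltotriose and glucose at -0.04 and maltose and glucose at 0.26. With a replicate block 6991 genes were called, and 900 and 1119 pairs had the S. eubayanus copy more positive and more negative. With crossed pairs, chosen after seeing the data, these were 7252 genes and 919 and 1136 pairs. Genes with few reads on maltose limit the size of the largest rises.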

Other observations

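Some genes outside the groups above were among the largest changes. SeDPC7 stood at 4184 and 3807 FPKM on maltotriose, against 3.21 and 14.4 FPKM on maltose, and ScDPA10 at 1219.9 and 1455 FPKM, against 2.70 and 2.78 FPKM. ScSHH3, a relative of a succinate dehydrogenase subunit, stood at 964 and 1129 FPKM on maltotriose, against 2.59 and 3.36 FPKM on maltose. Among the falls were ScHBN1, at 8.44 and 10.4 FPKM on maltotriose, against 336 and 254 FPKM on maltose, ScFSH1, a serine hydrolase, at 26.3 and 36.2 FPKM, against 537 and 489 FPKM, and ScYHB1, a flavohemoglobin that removes nitric oxide, at 23.2 and 20.2 FPKM, against 379 and 369 FPKM.

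Counts for metal, phosphate and vitamin genes are given beside the shares among all genes, which were 27.8% higher and 38.6% lower in the S. eubayanus and 28.4% higher and 34.8% lower in the S. cerevisiae subgenome. For phosphate 10 of 22 S. eubayanus genes rose and 4 fell, and 13 of 21 S. cerevisiae genes rose and 2 fell. For iron and copper 16 of 35 S. eubayanus genes rose and 3 fell, and 16 of 33 S. cerevisiae genes rose and 8 fell. The copper transporter gene CTR3 rose by 3.83 and 2.48 on the log2 scale. The paralogous iron-sulfur scaffolds moved apart in both subgenomes, since ISU1 rose by 3.29 and 2.92 while ISU2 fell by 2.33 and 2.26. For the synthesis of vitamin B6, thiamine and biotin 20 of 35 S. eubayanus genes rose and 5 fell, and 15 of 31 S. cerevisiae genes rose and 7 fell.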
